A study of Mus musculus with 768 samples.

Results

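The small leucine-rich proteoglycans are secreted proteins built on a core of leucine-rich repeats, most of them with glycosaminoglycan chains attached. The 8 genes described here were chosen by symbol from the 52636 genes in the count tables: decorin (Dcn), lumican (Lum), osteoglycin (Ogn), epiphycan (Epyc), podocan (Podn), biglycan (Bgn), fibromodulin (Fmod) and asporin (Aspn). They were measured in single cells of mouse cochlear organoids on culture days 1, 3 and 7. The cells came from the greater epithelial ridge, the epithelium on the inner side of the hair cells, of postnatal day 2 mice carrying Fgfr3-CreERT2, Ai14-tdTomato and Sox2-GFP. They had been enriched by flow cytometry, but the labels do not state the gates, nor whether tamoxifen was given to activate the Cre. Every culture of all 3 days carried the same alleles and grew in the same DMEM/F-12 medium with N-2 and B-27 supplements, ampicillin, EGF, FGF2, IGF1, CHIR99021 (a GSK3 inhibitor), valproic acid (a histone deacetylase inhibitor), 2-phospho-L-ascorbic acid (a stable vitamin C) and the TGFβ receptor inhibitor 616452. The days therefore differ in time in culture only as far as the labels say, and there was no tissue that had not been cultured. Cells were picked by hand after trypsin and each was made into its own SmartSeq2 library, which covers whole transcripts and has no molecular identifiers.

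After filters on reads, genes and mitochondrial share, 711 of 768 cells were retained: 182 cells of 3 cultures on day 1, 228 of 3 cultures on day 3 and 301 of 5 cultures on day 7. The median cell of a culture had between 647980 and 971248 reads on genes. The labels number the cultures without saying whether they came from separate animals, so the p-values below measure the spread between these cultures, which may be technical. Epcam or Cdh1, which mark epithelium in general, had at least 1 read in 99.7% of cells, a low threshold. Levels are given as CPM (reads of a gene scaled to a common library total). The 9 genes of the greater epithelial ridge and tectorial membrane list summed to between 9487 and 13748 CPM on day 1. On day 3 they summed to between 3782 and 7573, and on day 7 to between 2228 and 4124. Of that list, Ceacam16 was at 0 on days 3 and 7. Hair cell markers summed to 0 to 20.5 CPM on day 1, 10.4 to 89.5 on day 3 and 0 to 4.11 on day 7. On day 3, endothelium markers (2 of 3 with a read) reached 24.9 CPM and pericyte markers (1 of 3 with a read) 43.7. Many proteoglycans of this family are best known from fibroblasts, so mesenchyme markers matter here: the 12 in the list summed to 12.4 to 34.3 CPM on day 1, 13.7 to 57.2 on day 3 and 4.45 to 28.0 on day 7. Of these 12 markers, 7 had a read on day 1, 12 on day 3 and 10 on day 7. Tbx18, Pdgfra, Twist2, Prrx1 and Col3a1 were at 0 on day 1, and Twist2 and Col3a1 on day 7.

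In connective tissue these proteins sit on collagen fibrils and set their diameter and spacing. They also bind growth factors and receptors: decorin, for example, binds TGFβ and the EGF and Met receptors. The family is divided by sequence and gene structure into class I (decorin, biglycan, asporin), class II (lumican and fibromodulin, which can carry keratan sulphate), class III (epiphycan and osteoglycin) and a class V that holds podocan. In the cochlea the epithelium beside the hair cells makes the tectorial membrane, a collagen-containing matrix, and Epyc is known as a gene of the cochlear supporting epithelium.

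Position links several members. Dcn (chromosome 10, 97479609 to 97518143), Lum (97565128 to 97572703) and Epyc (97644068 to 97682454) lie in a row on the plus strand of GRCm38, with 46984 bases between Dcn and Lum. Kera, the keratocan gene, lies between Lum and Epyc, 34175 bases past Lum and 30375 before Epyc. Ogn (chromosome 13, 49608046 to 49624501) and Aspn (49544443 to 49567565) lie in a second row with Ecm2 and Omd, and all of that row lies inside the span of Cenpp, a centromere protein gene on the opposite strand. Ogn shares no exon base with Cenpp, whereas Aspn shares 7. Podn is on the minus strand of chromosome 4 (108014791 to 108096445), Bgn on chromosome X and Fmod on chromosome 1. Epyc shares 1041 exon bases with the antisense non-coding gene Gm10754, which had 92 reads in all retained cells against 34127 for Epyc; the sources do not say whether counting used strand, so these bases cannot be assigned.

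Ogn was higher in some late cultures, most Epyc reads came from few cells, and Podn was nearly gone by day 7. The promoters of these 3 members are shown. Each is the 250 bases before the RefSeq start on GRCm38.p6, 5′ to 3′ on the strand of the gene, and capitals mark matches to the motifs searched on both strands: TATAAA (the TATA box), TGACTCA (an AP-1 site), GGGCGG (a GC box) and TTTGAA (the cell cycle homology region). Ogn is from chr13:49607765-49608014 on the plus strand, Epyc from chr10:97643818-97644067 on the plus strand, and Podn from chr4:108031955-108032204 on the minus strand, a start inside the longer GENCODE span given above. RefSeq entries for Dcn and Lum were not in the table used here.
Ogn: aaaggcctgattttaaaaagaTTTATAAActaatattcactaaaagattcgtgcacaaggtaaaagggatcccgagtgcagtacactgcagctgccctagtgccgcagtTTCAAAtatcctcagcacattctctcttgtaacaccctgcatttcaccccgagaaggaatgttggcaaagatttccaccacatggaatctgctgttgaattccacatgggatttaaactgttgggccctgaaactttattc
Epyc: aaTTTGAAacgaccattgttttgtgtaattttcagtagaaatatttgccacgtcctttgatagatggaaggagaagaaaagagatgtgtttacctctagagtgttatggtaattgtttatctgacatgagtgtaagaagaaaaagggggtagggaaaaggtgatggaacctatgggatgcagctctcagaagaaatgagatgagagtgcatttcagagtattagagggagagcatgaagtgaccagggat
Podn: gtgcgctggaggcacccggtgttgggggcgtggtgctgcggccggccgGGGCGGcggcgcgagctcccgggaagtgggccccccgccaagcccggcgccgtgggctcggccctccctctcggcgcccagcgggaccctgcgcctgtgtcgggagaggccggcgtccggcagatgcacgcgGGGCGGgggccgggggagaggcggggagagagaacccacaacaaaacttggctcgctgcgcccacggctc
The Ogn sequence has a TATA box on each strand, at overlapping positions -227 and -229 from the start, and a cell cycle homology region at -141. The Epyc sequence has only a cell cycle homology region, at -248, and the Podn sequence has GC boxes at -202 and -70. Their base composition was 42.0% GC for Ogn, 39.2% for Epyc and 78.0% for Podn, beside a median of 52.4% over 32851 promoters. Of those promoters 12.4% held a TATA box, 4.46% an AP-1 site, 32.7% a GC box and 16% a cell cycle homology region. A match is a description of letters and no evidence of binding.

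Lum and Dcn made up most of the family's RNA. Together they were 82.9% to 96.2% of the summed CPM of the 8 members, which ran from 617 CPM in day 7 culture 3 to 3096 CPM in day 7 culture 5. Levels were set per kilobase of exon to compare genes. The length merges all annotated exons (5.84 kb for Dcn, 2.45 kb for Lum), which may exceed that of the transcripts made. On this scale Lum was above Dcn in 11 of 11 cultures and Dcn above Epyc in 11 of 11. In CPM without division by length, Dcn was above Lum in every day 3 culture and below it in every culture of days 1 and 7. Mean levels per kilobase were 375, 221 and 449 CPM for Lum on days 1, 3 and 7, and 95.03, 107 and 90.2 for Dcn. Below them the order was not stable. Epyc was above Ogn per kilobase in 7 of 11 cultures, and Ogn was above Podn in 8 of 11, in none of the 3 day 1 cultures and in all of the others.

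**Figure D1:**
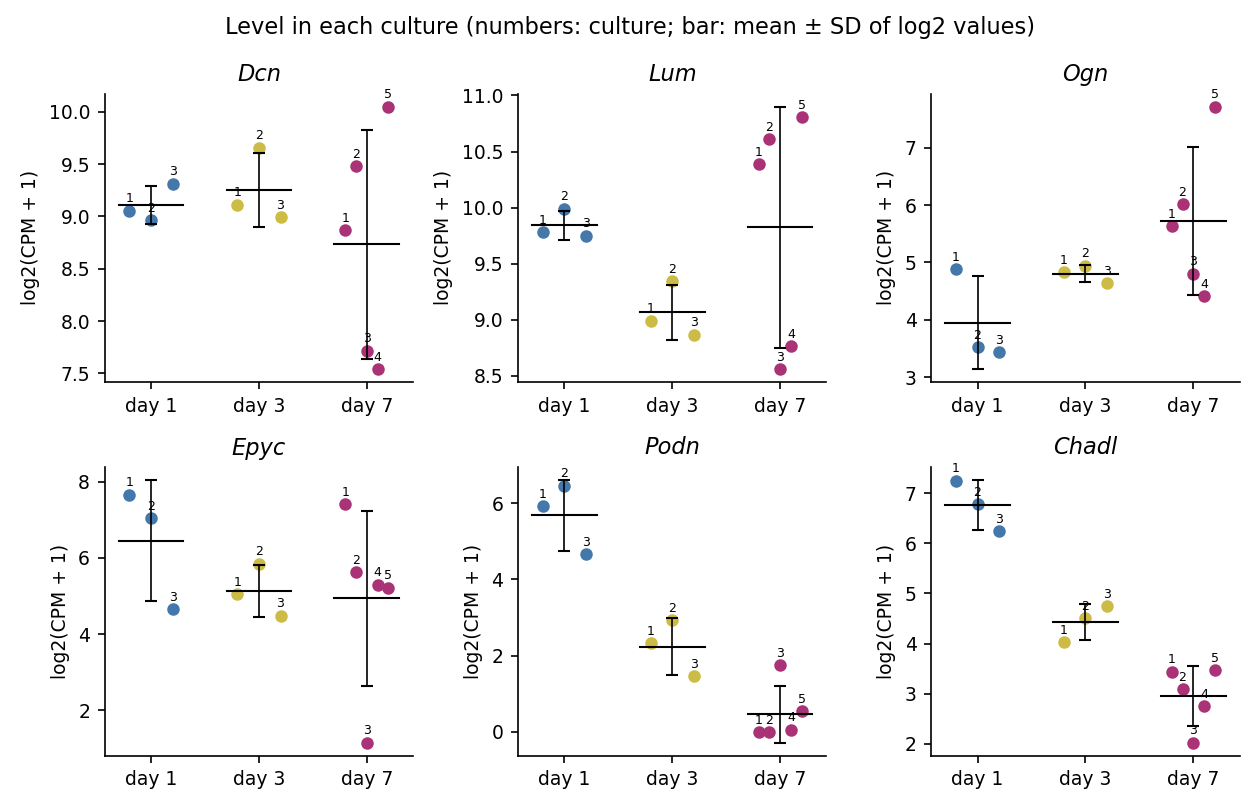
Each point is a culture, numbered by replicate, with its level as log2(CPM + 1) by culture day (3, 3 and 5 cultures); bars are the mean and SD of the log2 values. Podn and Chadl stand lower on day 7 than in any day 1 culture, while the day 7 cultures of Dcn and Lum fall into a low pair (3 and 4) and a higher set (1, 2 and 5).

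Between days, 1 of the 6 members that could be tested passed in edgeR's quasi-likelihood test with Benjamini-Hochberg adjustment over all 17466 genes tested: Podn, lower on day 7 than on day 1, where 7.11% of all genes were called (3.55% higher, 3.56% lower). Fmod and Aspn had too few reads to be tested. The 3 comparisons share cultures and so are not independent of each other. For day 3 against day 1, edgeR called 0 members (0.0115% of all genes), with 1 at an unadjusted p under 0.05 (Podn, beside 1617 of 17466 genes), and DESeq2 also called 0 (259 genes in all). For day 7 against day 3, edgeR called 0 members (0.968% of all genes, 0.183% higher and 0.784% lower), with 3 at an unadjusted p under 0.05 (Podn, Bgn and Lum, beside 2066 of 17466 genes), and DESeq2 called 1 (Bgn, of 639 genes in all).

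Podn, whose protein binds collagen, had 59.7, 87.0 and 24.3 CPM in the day 1 cultures. On day 3 it had 4.002, 6.64 and 1.75 CPM, and on day 7 it had 0, 0, 2.35, 0.0442 and 0.454 CPM. Every day 1 culture stood above every later one, whereas days 3 and 7 overlapped. Non-overlapping lower levels were seen in 8.11% of all genes for day 3 against day 1 and in 9.06% for day 7 against day 1. Podn fell by 6.59 on the log2 scale from day 1 to day 7 (SE 1.22, edgeR adjusted p = 0.00884). The day 3 against day 1 value of -3.79 (SE 1.33, adjusted p = 0.409) and the day 7 against day 3 value of -2.80 (SE 1.09, adjusted p = 0.309) did not pass. The cells were deposited in 2 files of 384 each, which may be a batch. The first holds only culture 1 of day 1, and the second only culture 5 of day 7. Within files the day 7 against day 1 value was -6.59 in the first and -6.93 in the second, the same size without the call. Among cells that were not cycling it was -5.42 (adjusted p = 0.103). With culture number as a block, a link that the labels do not give, it was -6.56 (edgeR adjusted p = 0.0591), also without the call. Summed mesenchyme markers overlapped between these days. Podn was still called without the 33 cells with mesenchyme markers, but 5 of them were from day 3 and 28 from day 7. No day 1 cell was among them, so this removed no day 1 Podn read and could not test their part. Other marker sums did not overlap: from day 1 to day 7 those of epithelium went from 2933 to 4993 CPM to 1578 to 2464, those of the greater epithelial ridge were lower as given above, and those of glia went from 53.7 to 74.4 CPM to 77.3 to 88.0. The sums of macrophage markers went from 4.09 to 9.03 CPM to 0.372 to 2.01, those of pericytes from 1.29 to 6.86 to 0 to 0.379 (Kcnj8 at 0) and those of melanocytes from 2.16 to 5.74 to 0 to 1.84 (Dct, Tyr and Mlana at 0). Their part in the Podn result was not tested.

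The share of cells with a Podn read was lower on later days too. A lower level in each cell also lowers this share, so fewer Podn cells and less Podn per cell cannot be told apart. In cells thinned to 200000 reads each, so that depth is equal, Podn had a read in 43.3% ± 17.2 (SD, n = 3 cultures) of cells on day 1, 12.6% ± 7.60 on day 3 and 4.23% ± 6.42 (n = 5) on day 7. By culture the share was 55.8%, 50.6% and 23.7% on day 1, then 9.52%, 21.2% and 6.94%, then 0%, 0%, 14.5%, 0% and 6.67%. The median cell that had it held 18.0 reads in the first of these days, 4.0 in the next and 1.0 in the last. The late Podn reads came mostly from day 7 culture 3, with 130 of 167.

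Chadl, a chondroadherin-like relative and not one of the 8, was also highest on day 1. It had 151, 109 and 74.8 CPM on day 1, 15.3, 21.6 and 25.9 on day 3, and 9.82, 7.52, 3.07, 5.76 and 10.1 on day 7. No 2 days overlapped; lower non-overlapping levels for day 7 against day 3 were seen in 5.14% of all genes. It fell by 3.94 on the log2 scale between days 1 and 7 (SE 0.37, edgeR adjusted p = 0.000291), and its share of cells went from 93.7% to 42.8% and 23.1%. The steps from day 1 to day 3 (-2.41, adjusted p = 0.0850) and from day 3 to day 7 (-1.53, adjusted p = 0.0698) did not pass.

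Ogn, a class III member known from bone and connective tissue, had its highest levels on day 7 but not in every culture. Its levels were 28.6, 10.6 and 9.88 CPM on day 1, 27.5, 29.8 and 24.0 on day 3, and 48.5, 63.8, 27.0, 20.2 and 209 on day 7. Days 1 and 7 overlapped: day 7 cultures 3 and 4 lay below day 1 culture 1, and culture 5 stood far above the others. The day 7 against day 1 value was 2.17 on the log2 scale (SE 0.71, edgeR adjusted p = 0.0832), which did not pass, and it was 1.29 (adjusted p = 0.112) without day 7 culture 5. Files gave different values, 0.42 in the first and 4.36 in the second. The only day 1 culture of the first is culture 1, and the only day 7 culture of the second is culture 5. DESeq2 called it (adjusted p = 0.0410). The share of thinned cells with an Ogn read was 25.3% ± 10.5 on day 1, 25.3% ± 5.15 on day 3 and 45.0% ± 18.3 on day 7.

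Lum had 879, 1017 and 860 CPM on day 1, 508, 649 and 466 on day 3, and 1336, 1562, 377, 435 and 1793 on day 7. All day 3 cultures lay below all day 1 cultures, as for 8.11% of all genes, while day 7 spanned both. The fitted values were -0.76 (SE 0.49, edgeR adjusted p = 0.707) for day 3 against day 1 and 1.02 (SE 0.45, adjusted p = 0.394) for day 7 against day 3. Neither passed. Leaving out the cells with reads of 2 or more mesenchyme regulators did not change the number of members called in any of the 4 comparisons (3 between days, 1 by cell cycle). None of these cells was from day 1, so the day 1 sums stayed as they were.

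Dcn, whose protein binds collagen and TGFβ, had no direction over time that exceeded the spread of cultures. It had 531, 498 and 635 CPM on day 1, 553, 807 and 508 on day 3, and 466, 714, 209, 185 and 1058 on day 7. Its SD was 71.2 CPM on day 1 and 367 on day 7. The log2 value for day 7 against day 1 was -0.08 (SE 0.47, edgeR adjusted p = 0.947), and its sign changed under 6 of 27 alternatives.

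Day 7 cultures 3 and 4 were the lowest of their day for Dcn, Lum and Ogn. They also had the largest share of cycling cells, 87.0% and 73.1%, beside 59.0%, 43.2% and 25.3% in cultures 1, 2 and 5. In their cells that were not cycling, Lum was 541 and 551 CPM, beside 1652, 1995 and 2065 in cultures 1, 2 and 5, and Dcn was 502 and 334 beside 626, 1030.2 and 1211. Ogn in those cells was 118 and 57.5 CPM, beside 76.3, 101 and 252, so that culture 3 lay above cultures 1 and 2. Culture 3 had only 9 cells that were not cycling, 4 of them with an Ogn read, so its values rest on few cells. Cells with reads of 2 or more mesenchyme regulators were 4 of 72 and 0 of 78 in cultures 3 and 4. In cultures 1, 2 and 5 they were 12 of 39, 7 of 37 and 5 of 75. The median of such day 7 cells was 220 thinned reads for Lum, beside 132 in the other cells. For Dcn it was 66.5 beside 46.5, and for Ogn 0 beside 0. The part of the cycling share or of these cells in the levels was not tested. Cultures 3 and 4 were deposited in the same file as cultures 1 and 2.

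Epyc, the class III proteoglycan of epiphyseal cartilage, varied widely between cultures of the same day. It had 201, 131 and 24.3 CPM on day 1, 32.0, 56.4 and 21.3 on day 3, and 168, 48.3, 1.23, 38.3 and 36.1 on day 7. The days overlapped, and no comparison passed (edgeR adjusted p from 0.560 to 0.895). A few cells decided these sums. On day 1 the 18 of 175 cells with the most Epyc reads held 85.0% of them, and on day 7 the 30 of 298 such cells held 98.2%. As many top cells held 31.7% and 31.4% of the reads of Lum, which most cells had. For Ogn and Podn, also read in a minority of cells, such concentration was seen too. The top cells held 77.1% and 66.5% of Ogn reads, and 60.0% and 100.0% of Podn reads. It was thus not particular to Epyc. The highest day 1 cell had 1503 Epyc reads of its 200000, whereas only 48 of the 175 cells had any.

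The remaining members were nearly absent. Bgn, the X-linked relative of decorin, had 47 reads in 4 day 1 cells, 212 in 2 day 3 cells and 1 in a day 7 cell. Both day 3 cells came from culture 3 and stood apart from the other cells: they had 97 and 115 Bgn reads, 251 and 156 of Pou3f4 and 347 and 311 of Tbx18, both regulators of the cochlear mesenchyme, 1 and 0 of Epcam, and 0 of Cdh1, Dcn and Lum. Without culture 3, the day 3 against day 1 value of Bgn went from 2.02 to -7.07 on the log2 scale, neither called. Fmod, which guides collagen cross-linking, had 72 reads in 2 cells on day 1 and none in 228 cells on day 3 or 301 on day 7, which allows shares of up to 1.32% and 0.997% of cells with a read. Aspn had 69 reads on day 1, 65 of them in 1 cell, then 6 and 5. The leading Fmod and Aspn cells had Epcam and Cdh1 reads, unlike the Bgn pair.

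**Figure D2:**
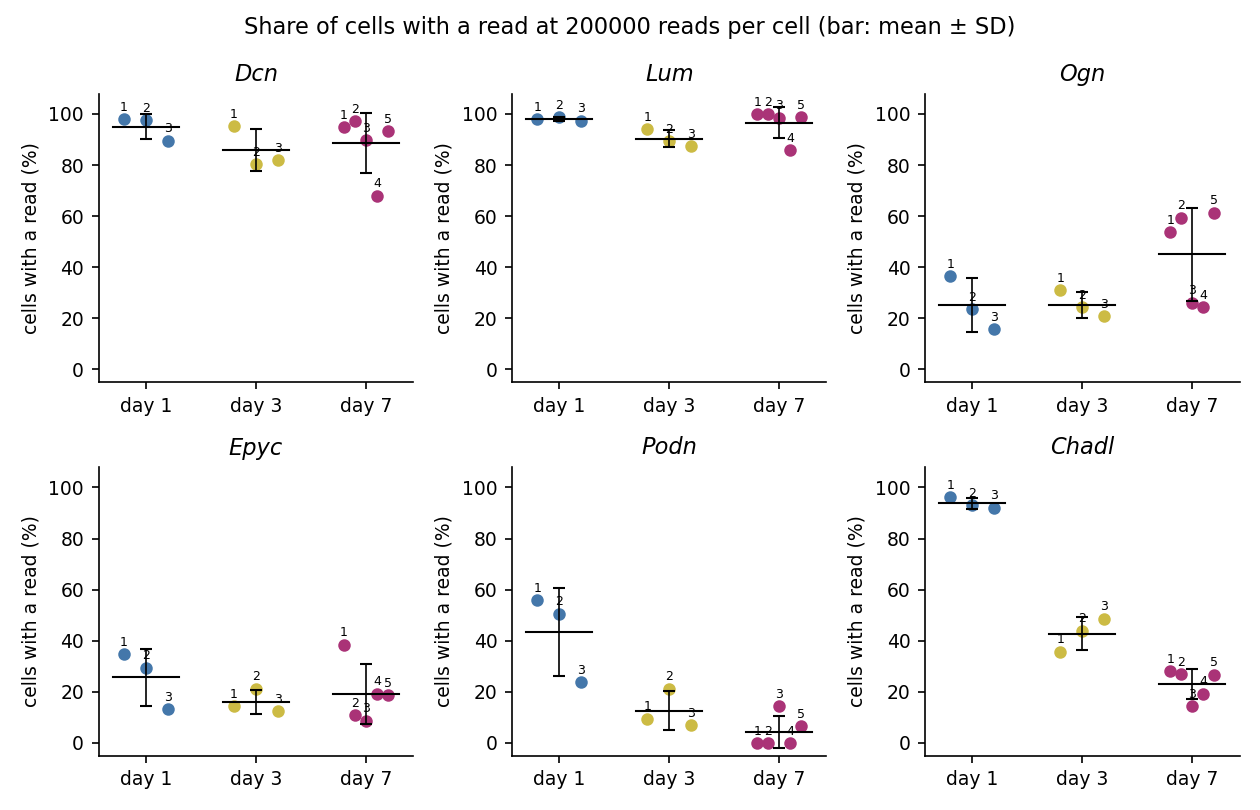
Each point is a culture and gives its percent of cells with at least 1 read after every cell was thinned to 200000 reads; bars are the mean and SD of the cultures of a day. Dcn and Lum were read in most cells on each day, Ogn and Epyc in a minority, and the shares of Podn and Chadl were lower on days 3 and 7 than on day 1.

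Dcn and Lum were read in most cells. Of 695 thinned cells, 605 (87.1%) had a read of both and 24 of neither. By day the share with Dcn was 95.1% ± 4.85 (n = 3), 85.8% ± 8.19 (n = 3) and 88.7% ± 11.9 (n = 5), and the share with Lum was 98.1% ± 0.728, 90.3% ± 3.37 and 96.6% ± 6.04. Of the 228 cells with an Ogn read, 214 had both. Within cultures, the level of Dcn moved with that of Lum over cells, with a median Pearson r of 0.534 over 11 cultures (0.146 to 0.793, positive in 11). Cells of a culture share handling and depth after thinning, so these values are descriptions. Other pairs were weak: median r was 0.184 for Dcn with Ogn, 0.213 for Lum with Ogn, 0.235 for Dcn with Epyc and 0.195 for Ogn with Epyc. The gene between Lum and Epyc, Kera, was read in 0 of 711 cells, which allows a share of up to 0.422%, so adjacent genes of the row ranged from the highest level of the family to none detected.

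The genes most like each member were ranked by mean r over cells within cultures, among genes read in at least 10% of cells. For Dcn they were Lum (0.518), Sparc (0.513), a collagen-binding secreted protein, and Clu (0.496), which encodes the secreted chaperone clusterin. For Lum they were Ctsb (0.572), a lysosomal protease, Clu (0.559) and Ddost (0.553), a subunit of the enzyme that adds N-linked sugars in the endoplasmic reticulum. For Ogn they were Cnmd (0.358), the cartilage protein chondromodulin, Clu (0.328) and B3galt2 (0.301) over 10 cultures. For Epyc they were Slit2 (0.335), a guidance cue, Clu (0.307) and Meg3 (0.262) over 7 cultures, and for Podn Clu (0.339), Ablim1 (0.333) and Hsd11b1 (0.306) over 4. Clu was thus among the 3 nearest genes of each of these 5 members. Dcn was not among the 6 genes nearest to Lum, the last of which had an r of 0.549. What these likenesses follow was not tested.

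Over the 11 cultures, the genes whose log2 CPM was nearest were different ones. They were Mxra8 (r = 0.880), Cln3 (0.873) and Plin2 (0.872) for Dcn, and Dkk3 (0.953), Secisbp2l (0.914) and Igfbp5 (0.908) for Lum. For Ogn they were Eef2 (0.902), Wisp1 (0.865) and Sms (0.863), for Epyc Pla2r1 (0.882), Efcab1 (0.809) and Itgb6 (0.804), and for Podn Kif21a (0.949), Penk (0.945) and Amd1 (0.939). For Bgn, which rests on few cells, they were Slc22a3 (0.811), Lancl1 (0.809) and Selenop (0.790). The cultures share days, so these r values are a ranking and no test.

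Members were also compared by cell cycle state. Cells were called cycling when at least 3 of 6 genes of G2 and mitosis (Mki67, Top2a, Cdk1, Birc5, Ccnb2, Tpx2) had a read in the thinned cell, which gave 341 cycling cells: 33 on day 1, 133 on day 3 and 175 on day 7. The call is a range and no cell type, with 60 cells at 2 genes and 45 at 3. Summed counts of cycling and other cells were compared within the 11 cultures, with culture as a block. Of the 5 members tested, 3 were lower in cycling cells and none higher, where edgeR called 14.2% of 13259 genes, 8.35% as higher and 5.81% as lower.

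**Figure D3:**
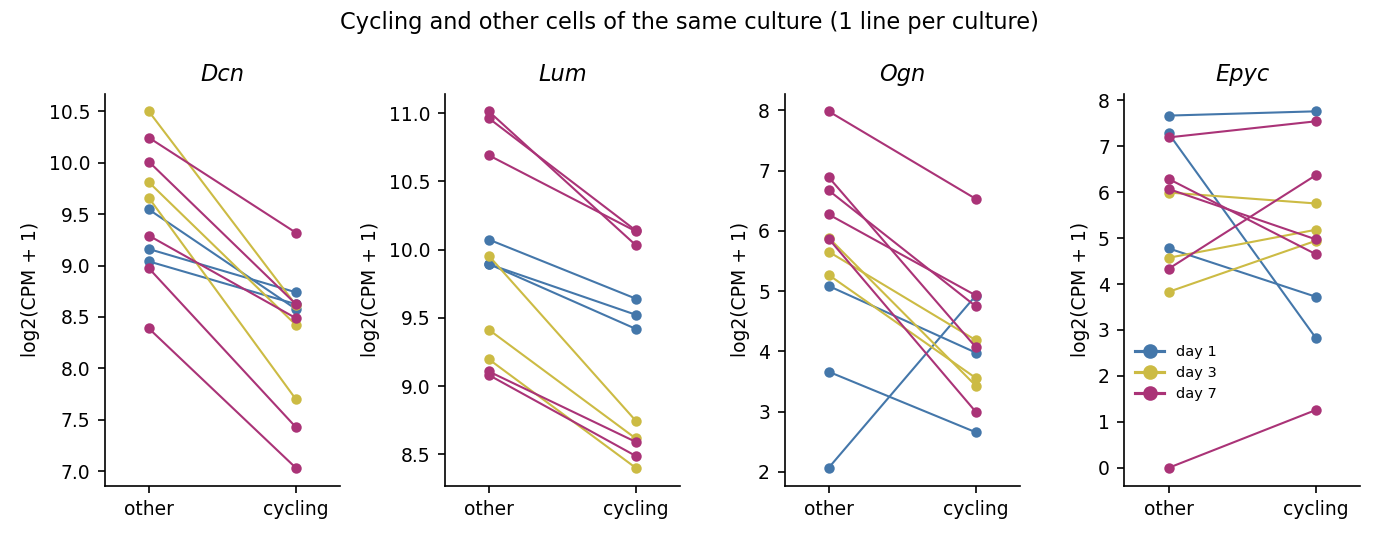
Each line joins the level, as log2(CPM + 1), in the other and the cycling cells of 1 culture, coloured by day. All 11 lines fall for Dcn and Lum and 10 of 11 for Ogn, while those of Epyc go both ways.

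Dcn averaged 348 CPM ± 140 (SD, n = 11) in cycling cells and 791 ± 334 in the others. It was lower in cycling cells in 11 of 11 cultures, as were 2.0% of all genes tested. The difference was -1.19 on the log2 scale (SE 0.14, edgeR adjusted p = 5.38e-05). On day 3 the pairs were 342 and 897, 391 and 1446, and 207 and 807 CPM. On day 7 they were 358 and 626, 394 and 1030.2, 171 and 502, 130 and 334, and 638 and 1211 CPM. On day 1 they were 427 and 571, 394 and 526, and 381 and 746. The median cell was also lower in cycling cells in 11 of 11 cultures, although most cycling cells had a Dcn read: in day 7 culture 1 it was 23 of 23, beside 14 of 16 others.

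Lum averaged 674 CPM ± 317 in cycling cells and 1095 ± 561 in the others, lower in 11 of 11 cultures. The difference was -0.69 (SE 0.08, edgeR adjusted p = 3.945e-05). The median cell was lower in cycling cells in 7 of 11 cultures and higher in the other 4. Ogn averaged 23.4 CPM ± 24.2 and 72.5 ± 68.9, lower in 10 of 11. The exception was day 1 culture 3, with 29.4 in its 9 cycling and 3.19 in its 29 other cells. The difference was -1.61 (SE 0.42, edgeR adjusted p = 0.0179), and it did not pass when 2 cycle genes sufficed (-0.85, adjusted p = 0.281) or in the second file alone (-0.82, adjusted p = 0.600). Dcn and Lum were called in both files, with values of -1.16 and -1.23 for Dcn and -0.63 and -0.75 for Lum.

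Epyc and Podn did not share this. Epyc gave -0.19 (SE 0.50, edgeR adjusted p = 0.872) and was lower in 5 of 11 cultures, and Podn gave -0.23 (SE 0.41, adjusted p = 0.793). Chadl gave -0.42 (SE 0.19, adjusted p = 0.184). Whether the members differ from each other was not tested. Cenpp, the centromere gene around Ogn, was higher in cycling cells by 4.76 (SE 0.67, adjusted p = 0.000181), in 11 of 11 cultures, the opposite direction to Ogn. CPM is a share of a cell's reads, and cycling cells had more genes with a read at equal depth in 10 of 11 cultures (culture medians of 5653 to 7607, beside 5036 to 6362), so less RNA of a gene and more RNA of others cannot be told apart. On sums of thinned cells the values were -1.11 for Dcn, -0.64 for Lum and -1.56 for Ogn, all called.

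By day, the difference of Dcn was -0.58 (edgeR adjusted p = 0.199) on day 1, -1.73 (0.00621) on day 3 and -1.20 (0.00513) on day 7. Lum gave -0.41 (0.269), -0.92 (0.0177) and -0.69 (0.00915), and Ogn gave 0.10 (0.985), -1.94 (0.0276) and -2.14 (0.0119). Within day 1 alone edgeR called 0 of 5 members, with 2 at an unadjusted p under 0.05 (beside 1745 of 13777 genes), and 1.77% of all genes. On days 3 and 7 it called 3 each, where 4.31% and 3.87% of genes were called. Day 1 had 9 to 13 cycling cells a culture. The change of the difference between days was tested as an interaction and passed for no member (for Dcn, day 3 minus day 1, -1.14, SE 0.24, adjusted p = 0.301). Across all genes that test called 0, 14 (0.106%) and 0 for day 3 minus day 1, day 7 minus day 1 and day 7 minus day 3.

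**Figure D4:**
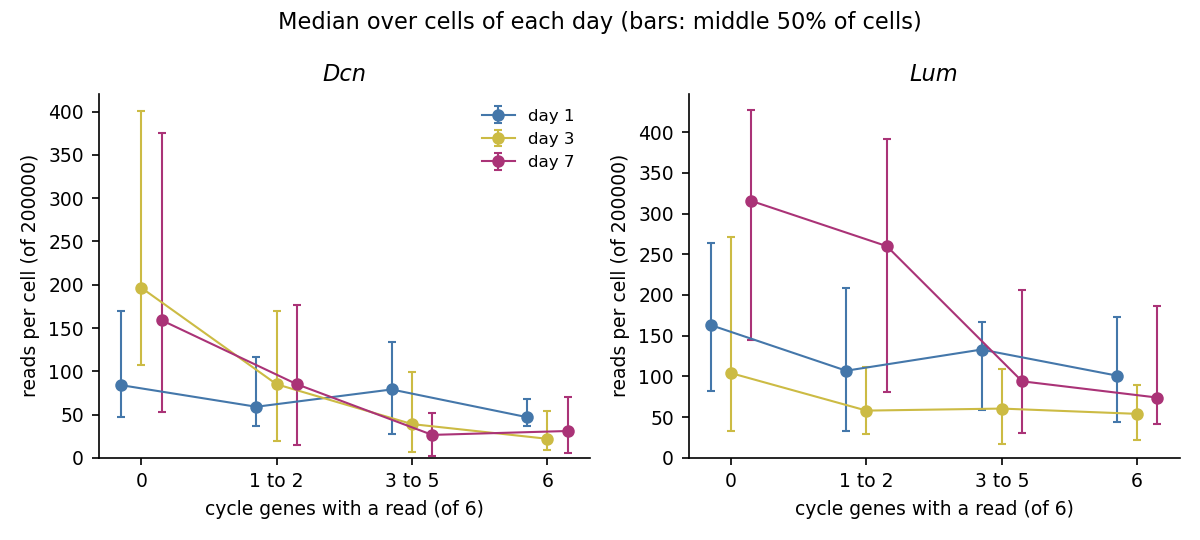
Points are the median Dcn or Lum reads per cell, of 200000, for cells with a read of 0, 1 to 2, 3 to 5 or all 6 cycle genes, by day; bars span the middle of the distribution from the lower to the upper quartile. On day 7 the Dcn median goes from 159 to 31.0 and the Lum median from 316 to 74.0, and on day 1 from 84.0 to 47.0 and from 163 to 101.

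Of these medians over cells for Dcn and Lum, those of Dcn on day 3 and Lum on day 7 were lower at each step, and the others were not. On day 3, Dcn had a median of 197 reads in the 40 cells with no cycle gene, 85.0 in those with 1 to 2, 39.0 in those with 3 to 5 and 22.0 in the 63 with all 6. On day 7 the medians were 159, 85.0, 26.5 and 31.0, and on day 1 they were 84.0, 59.0, 79.0 and 47.0. For Lum they were 316, 260.0, 94.0 and 74.0 on day 7, 104, 58.0, 60.5 and 54.0 on day 3, and 163, 107, 133 and 101 on day 1. Quartiles of neighbouring steps overlapped for both genes. The steps pool cultures of a day, in which cycling shares differ as given above.

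Genes around the proteoglycans were read from lists chosen by role, with earlier results of these data known. Of 10 related leucine-rich genes, 7 were tested and 2 fell from day 1 to day 7 (3.56% of all genes did), Chadl and Ecm2. Ecm2, next to Aspn, had 1.53 CPM on day 1, 0.298 on day 3 and 0.00883 on day 7, a fitted value of -6.93 (SE 1.89, edgeR adjusted p = 0.0453) that rests on 210 reads and was called in 8 of 23 alternatives. The median of the 7 was -2.0, beside 0.00 over all genes. It is the value of Optc (edgeR adjusted p = 0.612), which had 68, 5 and 18 reads on days 1, 3 and 7. Apart from Chadl, no tested gene of this list averaged more than 1.83 CPM on any day, so the median rests on few reads. Kera and Podnl1 had no read in any cell.

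Of 28 tested genes that build glycosaminoglycan chains, 1 rose and 2 fell from day 1 to day 7, where 3.55% of all genes were called higher and 3.56% lower. Ugdh, which makes the UDP-glucuronate for these chains, rose from 52.4 CPM ± 4.87 to 184 ± 34.0 (log2 1.81, SE 0.21, edgeR adjusted p = 0.00103). It was also higher on day 7 than on day 3 (1.12, adjusted p = 0.0254). B3gnt7, a keratan sulphate enzyme, fell from 41.7 ± 22.5 to 4.50 ± 3.38 (-3.22, SE 0.52, adjusted p = 0.00440, called in 25 of 27 alternatives), and Chpf, a chondroitin polymerising factor, also fell. In cycling cells, where 5.81% of all genes were lower, 2 of 27 were: Chpf2 (-0.93, adjusted p = 0.0104) and Chst14. The median of the list was 0.05 for day 7 against day 1, beside 0.00 for all genes.

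Collagens are the structural partners of these proteins. Of 17 tested genes of fibril collagens and their enzymes, 9 fell and none rose from day 1 to day 7, where 3.56% of all genes fell, with a median of -1.25 beside 0.00 over all genes. Col2a1, the main cartilage fibril collagen, had 1920 CPM ± 371 on day 1, 675 ± 70.0 on day 3 and 653 ± 146 on day 7 (log2 -1.56, SE 0.20, edgeR adjusted p = 0.00168). Col6a1, of a beaded filament collagen, went from 19.3 ± 12.3 to 0.00656 ± 0.00906 (adjusted p = 0.000282). From day 3 to day 7 Col11a2 and Col9a1 rose and Col6a1 fell, and Col11a2 passed in 10 of 27 alternatives. In cycling cells 4 of 15 were lower and none higher, Col9a2, Col11a1, Col27a1 and Col11a2, with a list median of -0.62 beside -0.03 for all genes.

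Of 16 tested ligands and receptors that family members can bind, 3 fell from day 1 to day 7, where 3.56% of all genes did: Igf1r (-1.45, edgeR adjusted p = 0.00565), Tgfb2 (-1.41, adjusted p = 0.00636) and Erbb4. Tgfb2, a ligand that decorin can hold, went from 673 CPM ± 114 to 253 ± 82.3. It was also lower in cycling cells, 305 beside 582 CPM and lower in 11 of 11 cultures (-1.06, adjusted p = 0.000166), as was Lrp1, a receptor that takes up decorin (-1.03, adjusted p = 0.0119). The list medians were -0.80 for day 7 against day 1 and -0.29 for cycling cells. Of 5 tested proteases that cut these proteins, Mmp2 rose from 100.3 CPM ± 4.49 to 175 ± 43.6 (0.80, SE 0.22, adjusted p = 0.0499), a call kept in 3 of 27 alternatives.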

How the data were processed

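Values are raw expected counts (reads estimated per gene), which the authors deposited for all cells in 2 tables of 384 cells each. STAR 2.5.3a, RSEM 1.3.0 and the build mm10/GRCm38 are named in the submitters' processing notes. The annotation release and strand setting are not given in the sources used here. Of values above 0, 10.6% were not whole. Identifiers and versions matched GENCODE M21 for 93.2% of genes, and coordinates are from it (Chadl did not match and has none). The 92 spike-in and 4 transgene rows held 0.00451% of reads and stayed out of totals.

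Counts were rounded per cell. Cells needed 50000 reads, 1500 genes and at most 20% mitochondrial reads, which removed 57. Sums per culture were tested in R 4.3.3 with edgeR 4.0.16 (quasi-likelihood F-test after TMM scaling and filterByExpr, with day alone in the model; cycling against other cells with culture as a block), with Benjamini-Hochberg adjustment over all genes tested and calls under 0.05. CPM uses TMM-scaled totals. For shares and correlations over cells, 695 cells were thinned to 200000 reads, and correlations used log2(CPM + 1). Reads are not independent molecules, so shares and limits from 0 reads cover counting error only. A cell with a read of 2 or more of 7 mesenchyme regulators was called a mesenchyme-marker cell. No doublet caller was run on these hand-picked cells. The day 7 against day 1 test was checked on simulated counts. It recovered 6 of 50 genes changed 2-fold, 32 of 50 changed 4-fold, 45 of 50 changed 8-fold and 50 of 50 changed 16-fold. Changes of 2-fold were thus mostly missed there.

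The members and lists were chosen with earlier results of these data known. Named genes are the 8 members, the 3 genes most like each over cultures (mean CPM of at least 20) and over cells, and up to 2 called genes of each list per comparison; Chpf, Chst14, Erbb4, Col9a1, Kera, Podnl1 and the rest of the called collagens named in counts were outside this rule and were chosen after their values were seen. Alternatives were RLE and upper-quartile scaling, DESeq2 1.42.0, limma 3.58.1 on mean CPM per cell, other cell and gene filters, thinned cells, files apart, other cycling thresholds, a replicate block and each culture left out. The fits of cycling cells by day, of the interaction and on thinned cells were added after the data were seen.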

Additional observations from a re-analysis of the deposited data

Results flagged for a closer look

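Day 7 was the only group with more than 3 cultures, so it alone was searched for a culture standing far from the rest, over 15 sets of 5 values, using Dixon's gap ratio at 0.71. Chance passes about 5% of such sets if values are normally distributed, and 5 of 15 passed. Most sets were CPM without logs or shares of cells, which can be skewed or are capped at 100%. That rate need not hold for them, so the 2 figures do not measure an excess over chance. Culture 5 had 209 CPM of Ogn, beside 20.2 to 63.8 in the others. Culture 1 had 168 CPM of Epyc, beside 1.23 to 48.3. Culture 3 had 2.35 CPM of Podn, beside 0 to 0.454. In culture 4, 67.9% of cells had a Dcn read, beside 89.9% to 97.3%, and 85.9% had a Lum read, beside 98.6% to 100.0%. The 15 sets share cultures and genes and are not independent. The difference between cycling and other cells passed the test of a change between days for no member.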

How the results depend on the processing

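Of 583 alternative fold changes of members, 542 kept direction and side of the threshold, 8 lost the call, 7 gained it and 26 changed sign; the cause was not tested. Of 512 for the other named genes in comparisons that called them (and Chadl in all), 393 kept both, 110 lost the call, 9 gained it and none changed sign. Of 27 alternatives for day 7 against day 1, 24 called Igf1r, 24 Tgfb2, 25 Col2a1, 26 Ugdh and 27 Col6a1; for day 7 against day 3, 19 called Ugdh and 10 Col11a2. Of 23 for cycling cells, 18 called Chpf2, 18 Lrp1, 5 Col11a2, 21 Cenpp and 22 Tgfb2. For day 3 against day 1 the count of members called was 0 except with limma on mean CPM per cell (1, Podn). For day 7 against day 1 it was 1 except with DESeq2 (2, Podn and Ogn), the first file alone (0) and non-cycling cells only (0); in the second file alone the 1 called was Ogn. For day 7 against day 3 it was 0 except with DESeq2 (1, Bgn) and the second file alone (1, Ogn), and 0 to 1 with cultures left out (1 without day 7 culture 3, Podn, adjusted p = 0.0441). For cycling cells it was 3, or 2 with a threshold of 2 genes or the second file alone, and 0 in day 1 cultures.

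Sign changes, none called: for day 3 against day 1, Ogn in the first file (-0.10) and, with cultures left out, Dcn from -0.059 to 0.30 and Bgn from -7.07 to 2.61. For day 7 against day 1, Dcn with file as a term (0.11), non-cycling cells (0.24) and the second file (0.90), and from -0.49 to 0.085 with cultures left out (above 0 without day 1 culture 3, day 7 culture 3 or day 7 culture 4). For day 7 against day 3, Dcn in the second file (0.71), Epyc with limma (-0.078) and the second file (-0.084) and, with cultures left out, Epyc from -0.24 to 1.13 (below 0 without day 7 culture 1) and Bgn from -9.16 to 1.61 (above 0 without day 3 culture 3). For cycling cells, a threshold of 2 genes gave 0.71 for Epyc and 0.87 for Podn; 4 genes gave 0.059 for Podn and the second file 0.17. With cultures left out Epyc ran from -0.45 to 0.12 (without day 1 culture 2) and Podn from -0.37 to 0.014 (without day 7 culture 3). Day 1 cultures gave 0.10 for Ogn and 0.20 for Podn, and days 3 and 7 gave 0.53 and 0.18 for Epyc.

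Deviations of same-numbered cultures correlated at -0.0101 to 0.0614, and those of differently numbered cultures at -0.0851 to 0.0716. These ranges overlap and do not settle whether the numbers pair the cultures. With the replicate block the members called were 0, 1 and 0 for the 3 comparisons; for day 7 against day 1 the 1 was Ogn (adjusted p = 0.0437) and Podn was at 0.0591. The block gave -0.66 for Bgn (day 3 against day 1) and -0.33 for Epyc (day 7 against day 3). It gave 22, 1031 and 96 genes called of all, beside 2, 1241 and 169 without it. DESeq2 called 259, 2318 and 639, and 2885 beside 1878 for cycling cells; limma called 69 for day 3 against day 1. The files alone gave 0 and 18, 15 and 125, 0 and 20, and 570 and 709 for cycling cells; non-cycling cells gave 1, 182 and 81. Leaving out a culture gave 0 to 5, 436 to 1380, 35 to 174 and 1517 to 1816. Other day 3 against day 1 counts were 13 without a gene filter, 19 with the strict one, 8 thinned, 5 from the 2 days alone and 1 without mesenchyme-marker cells; day 7 against day 3 gave 102 with file as a term and 69 from the 2 days alone. Of 72 alternative shares of cells, 67 moved by less than 1 SD. Thinning, which kept 175 of 182 day 1 cells, moved those with a Bgn read from 4 to 3 and left those with Fmod at 2.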
